A study of Mus musculus with 12 samples.

Results

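Transcripts of the cytosolic Hsp90 chaperone and of its co-chaperones were followed over the day in C57BL/6J mice, in their prefrontal cortex. The set was defined by name, as Hsp90aa1, Hsp90ab1, Ahsa1, Stip1, Chordc1, Cacybp, Fkbp4 and Cdc37, and its members were all probe sets of the Affymetrix Mouse430_v2 array that are annotated to 1 of these 8 genes and to no other. The rule gave 15 of 45037 probe sets, from 7 of the 8 genes, and 18193 genes have such a probe set in all. Hsp90ab1 was not analysed here. The mice, 10 weeks old when obtained, were kept on 12 hours of light and 12 hours of dark for 2 weeks in all, and no treatment is named for them. The prefrontal cortex of 3 mice was taken at each of ZT3 and ZT9, which lie 3 and 9 hours after lights on, and of ZT15 and ZT21, in the dark. Each array held the RNA of 1 mouse, so that 12 arrays were compared. The tissue was anterior cortex without the olfactory bulb and without the structures beneath the cortex, cut out under red light at ZT15 and ZT21, and it holds all cell types of the cortex. In such bulk tissue fewer cells of a type and less RNA per cell cannot be told apart.

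Hsp90 is an abundant ATP-driven chaperone that holds kinases, steroid receptors and other client proteins in a form that can be activated. Co-chaperones direct its cycle. Stip1, also named Hop, links Hsp70 to Hsp90 and passes clients on, Cdc37 brings kinases, Fkbp4 assists steroid receptors, Ahsa1 speeds up the ATPase, and Chordc1 and Cacybp bind Hsp90 by domains of the CHORD and CS type. Many genes of this machinery are known targets of the heat shock factor Hsf1, which binds inverted repeats of the letters GAA. In the brain, as in other tissues, cytosolic Hsp90 is abundant without any stress.

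Because the heat shock element is the best known control sequence of these genes, it was looked for in their promoters, and the promoters in which it was found are shown. For Hsp90aa1 and Hsp90ab1 no promoter was at hand, and none was searched. RefSeq promoters of build GRCm38.p6, from 250 bases before to 50 bases from the annotated start, were at hand for the other 6 of the 8 genes. They were searched on both strands for GAANNTTC and TTCNNGAA, the 2 ways in which a pair of units can face each other, for the heat shock element of 3 units, which is a GAANNTTC with a further GAA at the same spacing, or its reverse complement, and so contains both shorter forms, for the E-box CACGTG and for the cAMP response element TGACGTCA. Capitals mark the matches.
Chordc1, chr9:18292017-18292316, plus strand: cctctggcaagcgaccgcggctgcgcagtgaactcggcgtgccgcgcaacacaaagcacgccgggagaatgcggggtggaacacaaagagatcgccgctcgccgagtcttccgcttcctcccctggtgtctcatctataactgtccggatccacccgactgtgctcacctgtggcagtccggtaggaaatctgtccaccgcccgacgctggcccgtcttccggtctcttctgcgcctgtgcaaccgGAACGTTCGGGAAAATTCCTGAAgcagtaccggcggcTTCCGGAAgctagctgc
Fkbp4, chr6:128438607-128438906, minus strand: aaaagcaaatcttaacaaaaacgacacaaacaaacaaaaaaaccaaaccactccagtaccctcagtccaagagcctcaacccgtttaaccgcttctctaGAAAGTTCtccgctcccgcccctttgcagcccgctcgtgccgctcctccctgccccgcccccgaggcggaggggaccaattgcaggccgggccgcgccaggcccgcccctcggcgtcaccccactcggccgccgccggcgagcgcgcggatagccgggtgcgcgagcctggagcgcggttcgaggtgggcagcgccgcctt
Cdc37, chr9:21149885-21150184, minus strand: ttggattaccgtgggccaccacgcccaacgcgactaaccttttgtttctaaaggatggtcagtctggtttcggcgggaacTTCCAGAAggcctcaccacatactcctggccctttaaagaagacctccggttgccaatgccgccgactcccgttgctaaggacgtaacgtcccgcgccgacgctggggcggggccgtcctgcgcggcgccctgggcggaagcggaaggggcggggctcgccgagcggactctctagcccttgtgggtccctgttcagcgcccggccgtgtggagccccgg

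The promoter of Chordc1 held 3 overlapping matches of the 3-unit element in a run of 23 bases, GAACGTTCGGGAAAATTCCTGAA at chr9:18292263-18292285, which spans the annotated start from 4 bases before to 18 bases after it. A further TTCCGGAA followed 33 to 40 bases after the start. Of 32851 promoters in the table, 198 (0.603%) held the 3-unit element at all, and 1 held at least 3 matches of it. That count was chosen after the run had been seen. Fkbp4 and Cdc37 had a single match of 2 units each, GAAAGTTC 151 to 144 bases and TTCCAGAA 170 to 163 bases before the start, and 7.86% and 8.52% of all promoters held these forms. No match of any of these letters lay in the windows of Ahsa1, Stip1 and Cacybp, and none of the 6 windows held the E-box (7.15% of all promoters) or the cAMP response element (1.79%). The window of Ahsa1, chr12:87266478-87266777, lay inside the gene, whose annotated span begins at 87266415. The bases before that span were therefore not searched for Ahsa1. A match is a description of letters and not a proven site.

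**Figure D1:**
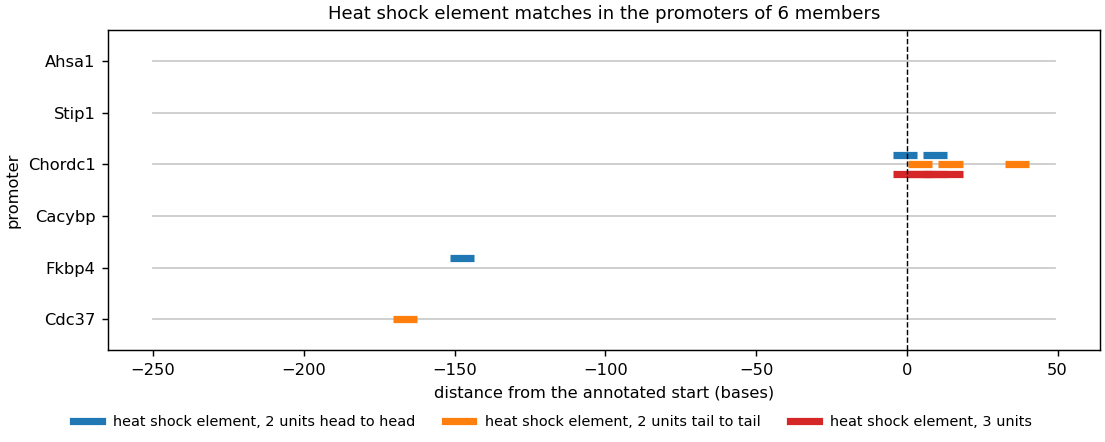
Matches of the heat shock element in the promoters of 6 members, by distance from the annotated start in bases. Colours give the form of the element. In Chordc1 the matches of 3 units run from 4 bases before to 18 bases after the start, while Fkbp4 and Cdc37 hold 1 match each and the other promoters none. The window of Ahsa1 lies inside its gene.

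The deposited values are GCRMA intensities on a linear scale, given below as log2. The brightest 54.5% of probe sets, as many as the study kept by detection calls, were tested together over the 4 time points with the moderated F-test of limma, at the FDR threshold of 0.20 that the study used, and 11 of the 15 member probe sets, from 7 genes, were among them. The 3 mice per time point limit the precision, and each p-value sets the differences between times against the spread between single mice. Mean intensity was 344 to 360 on 7 arrays, 374 on ZT15 replicate 1, and 392 to 398 on ZT9 replicates 1 and 2, ZT15 replicate 3 and ZT21 replicate 3, which are called the 4 brightest arrays here. Of 8 markers of cortical excitatory neurons 7 were tested, with means from 8.70 for Fezf2 to 12.20 for Slc17a7, and 0 passed the F-test of limma (smallest adjusted p = 0.293). At an unadjusted p under 0.05 there were 3 of 7 (15.5% of all probe sets), and SAM, the multiclass statistic the study used, called 3 (19.6% of all). Markers of the choroid plexus, a tissue outside the cortex, were highest on ZT9 replicate 3, where the mean of the 3 tested of 6 listed was 10.33, against 7.34 to 9.32 at the other 3 times, and 0 passed (0 unadjusted, 0 by SAM). Striatal markers (5 of 8 tested, 0 passed, 1 unadjusted, 1 by SAM) were highest on the same array, at a mean of 8.15 against 7.35 to 7.79 at the other 3 times. Of the endothelial markers (3 of 5 tested) 1 passed, Cldn5, a tight junction protein, with 8.97 ± 0.13 at ZT3, 8.27 ± 0.34 at ZT9, 8.40 ± 0.19 at ZT15 and 9.33 ± 0.09 at ZT21 (adjusted p = 0.0602 from limma). Cldn5 stayed under 0.20 in each alternative fit (0.00329 to 0.175 from limma), but at 0.05 it did not pass in the fit described here. Alternative fits to all arrays differed at 0.05. It passed under quantile normalization (adjusted p = 0.0135 from limma), for example, and not with a block for replicate number (0.158). The mean of the 3 was 7.68 to 7.81 on the arrays of ZT3, 7.17 to 7.67 at ZT9, 7.48 to 7.79 at ZT15 and 7.80 to 7.96 at ZT21. Like 4 of the 7 member genes it was lowest at ZT9, and its part in their levels was not tested. Of 6 microglial markers 0 passed (2 unadjusted, 3 by SAM), and of the markers of interneurons, astrocytes, oligodendrocytes and blood 0 passed, unadjusted or by SAM either.

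Chordc1 was the only member that passed the test over the 4 time points. Its transcript, whose protein (also named morgana) is a co-chaperone that binds Hsp90, stood at 9.87, 9.72 and 9.84 in the 3 mice at ZT3, at 9.57, 9.47 and 9.31 at ZT9, at 10.01, 9.94 and 9.99 at ZT15 and at 9.34, 9.53 and 9.62 at ZT21. Thus every mouse at ZT15 lay above every mouse of the other times, and ZT3 lay above ZT9 and ZT21 without overlap. In the order of the times, the means of 3 mice with their SD were 9.81 ± 0.08, 9.45 ± 0.13, 9.98 ± 0.04 and 9.50 ± 0.14. High values thus stood 3 hours after lights on and 3 hours after lights off, and low ones 9 hours after each. From ZT9 to ZT15 the difference was 0.53 on the log2 scale (standard error 0.10, 95% interval 0.31 to 0.75), or 1.45-fold. The F-test gave adjusted p = 0.115 from limma, place 111 among all tested. Of the 11 tested member probe sets this was the only 1 called at 0.20, against 1.93% of all probe sets tested, and at 0.05 there was 0 (0.106% of all). At an unadjusted p under 0.05 there were 2 of the 11, against 15.5% of all. The multiclass SAM statistic with 100 permutations, the kind of test the study used, called 2 at an FDR of 0.20, Chordc1 (q = 0.0825) and Hsp90aa1 1426645_at (q = 0.176), against 19.6% of all. ZT15 and ZT3 differed by 0.17 (95% interval -0.05 to 0.39) and ZT21 and ZT9 by 0.05 (-0.17 to 0.27), and neither interval excluded 0. The call ended without ZT3 replicate 2 or 3 (adjusted p = 0.255 and 0.253 from limma), without ZT15 replicate 1 or 2 (0.205 and 0.219) and without ZT21 replicate 1 or 2 (0.219 and 0.217), while ZT15 minus ZT9 stayed between 0.46 and 0.59 whichever array was left out. Without the 4 brightest arrays, where ZT9 keeps replicate 3 alone, the range over the times was 0.67.

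**Figure D2:**
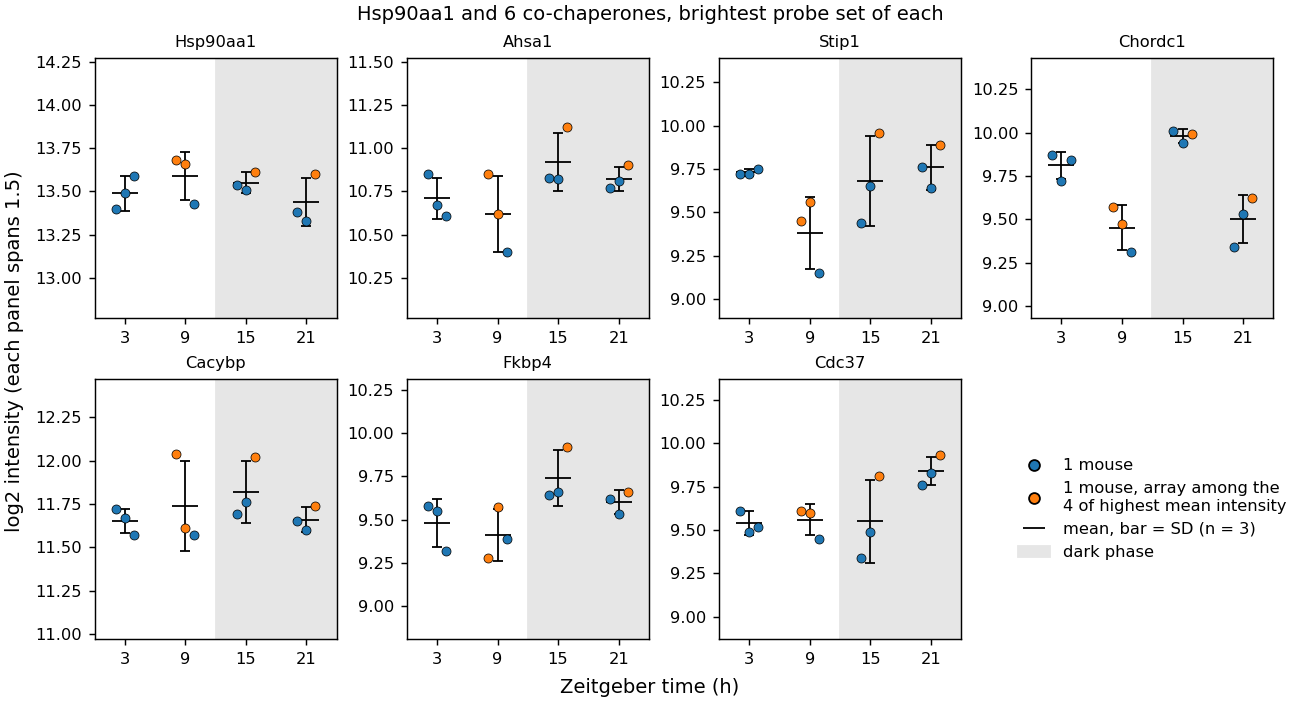
Log2 intensity of Hsp90aa1 and 6 co-chaperones against zeitgeber time in hours, by the brightest probe set of each gene. Circles are single mice, orange on the 4 brightest arrays, and bars give the mean and SD of 3 mice. Every panel spans 1.5 log2 units. Chordc1 is lowest at ZT9 (9.45) and highest at ZT15 (9.98), and Hsp90aa1 stays between 13.44 and 13.59.

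Hsp90aa1, the stress-inducible cytosolic Hsp90 itself, was among the brightest probe sets of the array and did not pass the test. Its brightest probe set, 1438902_a_at, lay above 99.9% of all probe sets and had 13.40, 13.49 and 13.59 at ZT3, 13.68, 13.66 and 13.43 at ZT9, 13.54, 13.51 and 13.61 at ZT15 and 13.38, 13.33 and 13.60 at ZT21. The mice of the 4 times overlapped. Its range, the highest minus the lowest mean of the 4 times, was 0.15 (standard error 0.10, adjusted p = 0.693 from limma), or 0.23 without ZT9 replicate 3, 0.24 without ZT21 replicate 3 and 0.10 without ZT21 replicate 2 (0.43, 0.418 and 0.864), and ZT15 minus ZT9 was -0.04 with a 95% interval of -0.27 to 0.19. A change across lights off as large as that of Chordc1 lies outside this interval.

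A second probe set of Hsp90aa1, 1426645_at, was low in part of the mice at ZT21. It had 13.25, 13.46 and 13.38 at ZT3, 13.40, 13.59 and 13.43 at ZT9, 13.48, 13.38 and 13.25 at ZT15 and 12.87, 12.80 and 13.34 at ZT21. ZT21 replicates 1 and 2 lay below all other arrays, and ZT21 replicate 3, with a mean intensity of 395, lay among the other times. The difference ZT21 minus ZT9 was -0.47 (95% interval -0.77 to -0.17, adjusted p = 0.253 from limma), and the F-test gave adjusted p = 0.287. Without ZT21 replicate 3 the same difference was -0.64 and passed (adjusted p = 0.0486 from limma), as did the F-test (0.109). That fit called 0.379% of all probe sets for this difference and 11.7% by the F-test, against 0.00407% and 1.93% with all arrays. Without ZT21 replicate 1 or 2 the F-test of limma gave adjusted p = 0.562 and 0.507. The third tested probe set, 1437497_a_at, ran from 12.93 to 13.23 at ZT21 and from 13.01 to 13.36 at the other times, with a range of 0.22 (adjusted p = 0.568). All 3 tested probe sets had their lowest mean at ZT21, where 30% of all probe sets had theirs, and 2 of them had their highest at ZT9 and the other at ZT15.

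**Figure D3:**
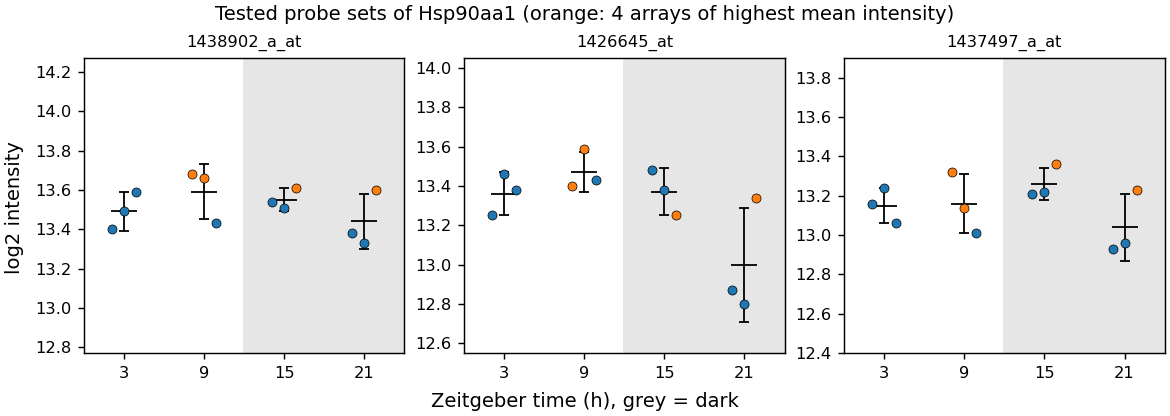
Log2 intensity of the 3 tested probe sets of Hsp90aa1 against zeitgeber time in hours. Each circle is a mouse (orange: the 4 brightest arrays), each bar a mean with its SD, and the dark hours are grey. In 1426645_at ZT21 replicates 1 and 2 lie at 12.87 and 12.80, below all other mice.

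Ahsa1, Fkbp4 and Stip1 had their lowest mean at ZT9, as Chordc1 did, but with smaller differences that did not pass in the fit to all arrays. Fkbp4, an immunophilin of steroid receptor complexes, had 9.58, 9.55 and 9.32 at ZT3, 9.28, 9.57 and 9.39 at ZT9, 9.64, 9.66 and 9.92 at ZT15 and 9.62, 9.53 and 9.66 at ZT21. All mice at ZT15 lay above all mice in the light, while those at ZT21 overlapped with them. Its difference between dark (ZT15 and ZT21) and light (ZT3 and ZT9) was 0.22 (95% interval 0.05 to 0.40, adjusted p = 0.245 from limma), and ZT15 minus ZT9 was 0.32 (0.07 to 0.57, adjusted p = 0.53).

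Ahsa1, which stimulates the ATPase of Hsp90, had 10.85, 10.67 and 10.61 at ZT3, 10.85, 10.62 and 10.40 at ZT9, 10.83, 10.82 and 11.12 at ZT15 and 10.77, 10.81 and 10.90 at ZT21. The night values, from 10.77 to 11.12, overlapped with those of the first replicates of ZT3 and ZT9 and lay above the other values in the light. Dark minus light was 0.21 (95% interval 0.01 to 0.40, adjusted p = 0.305 from limma) and ZT15 minus ZT9 was 0.30 (0.02 to 0.58, adjusted p = 0.648). The highest value, of ZT15 replicate 3, and the lowest, of ZT9 replicate 3, weighed on the second difference, which was 0.21 without the former and 0.19 without the latter. The F-test (adjusted p = 0.43 from limma) passed with array weights (range 0.25, 0.172). That fit called 60% of all probe sets, against 1.93% in the fit without weights. Without the 4 brightest arrays, where ZT9 keeps replicate 3 alone, the range was 0.43. The part of the choroid plexus and striatal markers, which were highest on ZT9 replicate 3, was not tested. A dim second probe set of Ahsa1 stood between 6.24 and 6.41 on 9 arrays and at 7.18, 6.89 and 6.79 on ZT9 replicate 1, ZT15 replicate 3 and ZT21 replicate 3, which are 3 of the 4 brightest arrays (mean intensity 398, 392 and 395). The range of this probe set was 0.31, and 0.09 with log2 mean intensity as a covariate. Without the 4 brightest arrays, where ZT9 keeps replicate 3 alone, its range was also 0.09. The cause of the high values was not tested.

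Stip1, the adaptor between Hsp70 and Hsp90, had 9.72, 9.72 and 9.75 at ZT3, 9.45, 9.56 and 9.15 at ZT9, 9.44, 9.65 and 9.96 at ZT15 and 9.76, 9.64 and 9.89 at ZT21. ZT9 lay below ZT3 and below ZT21 without overlap, and ZT15 ran from among the ZT9 values to above all other arrays. ZT21 minus ZT9 was 0.38 (95% interval 0.07 to 0.69, adjusted p = 0.302 from limma), and the F-test gave a range of 0.38 with adjusted p = 0.35. Without ZT9 replicate 3, which had the lowest value, the range was 0.26 (adjusted p = 0.519 from limma). ZT15 minus ZT9 was then 0.18, against 0.30 with all arrays. The range passed under quantile normalization (0.46, adjusted p = 0.146 from limma), with array weights (0.28, 0.168) and with mean intensity as a covariate (0.53, 0.18). These fits called 8.73%, 60% and 5.56% of all probe sets, against 1.93% in the fit described above. Without the 4 brightest arrays, where ZT9 keeps replicate 3 alone, the range was 0.58.

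Cdc37 and Cacybp followed other courses. Cdc37, which loads kinases onto Hsp90, had 9.61, 9.49 and 9.52 at ZT3, 9.61, 9.60 and 9.45 at ZT9, 9.34, 9.49 and 9.81 at ZT15 and 9.76, 9.83 and 9.93 at ZT21. The ZT21 values lay above all values in the light, and ZT15 replicate 3, at 9.81, reached into them. ZT21 minus ZT9 was 0.28 (95% interval 0.03 to 0.54, adjusted p = 0.338 from limma), and the F-test gave adjusted p = 0.35. The F-test passed under quantile normalization (0.178), with array weights (0.0439) and without ZT15 replicate 3 (0.179). These fits called 8.73%, 60% and 5.62% of all probe sets, against 1.93% in the fit described above. Without the 4 brightest arrays, where ZT9 keeps replicate 3 alone, the range of Cdc37 was 0.38, against 0.30 with all arrays. Cacybp, which binds Hsp90 and the ubiquitin ligase Siah1, had 11.72, 11.67 and 11.57 at ZT3, 12.04, 11.61 and 11.57 at ZT9, 11.69, 11.76 and 12.02 at ZT15 and 11.65, 11.60 and 11.74 at ZT21. Only ZT9 replicate 1 and ZT15 replicate 3 stood out, at 12.04 and 12.02, and both are among the 4 brightest arrays. Its range of 0.17 did not pass (adjusted p = 0.734 from limma) and was 0.09 without ZT15 replicate 3 (0.939).

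The other probe sets of these genes were dim. Fkbp4 1416363_at, with a mean of 5.34, was tested and had a range of 0.14 (adjusted p = 0.787 from limma). The remaining 4 fell below the filter, at a mean of 4.87, and were not tested. These were Hsp90aa1 1441827_x_at and 1433251_at (means 3.98 and 2.15), Fkbp4 1459808_at (4.17) and Cdc37 1416820_at (4.82), and their ranges were 0.05 to 0.32. Fkbp4 1459808_at was highest at ZT3, on replicate 1 alone at 4.68, and lowest at ZT9.

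By the brightest probe set of each gene, 4 of 7 genes were highest at ZT15 (24.1% of all tested probe sets were), 2 at ZT21 (24.7%), 1 at ZT9 (29.1%) and 0 at ZT3 (22.1%). Of the same 7, 4 were lowest at ZT9 (15.6% of all), 2 at ZT3 (39%), 1 at ZT21 (30%) and 0 at ZT15 (15.5%). Under quantile normalization 6 were lowest at ZT9, and 4 under centring on the median. Without ZT9 replicate 3, the array with the high choroid plexus markers, 2 of 7 were. For these alternative fits the share of all probe sets lowest at ZT9 was not counted. The dark level was above the light level in 6 of 7 genes, the exception being Hsp90aa1, and in 5 of 7 without ZT15 replicate 3. The share of all probe sets with dark above light was not counted either. Over the 11 tested probe sets the median difference between dark and light was 0.10, against 0.01 over all tested, and the median range was 0.30, against 0.27.

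No contrast between times called a member at an adjusted p under 0.05. Between dark and light 0 of 11 passed limma's moderated test, against 0.0937% of all probe sets higher and 0% lower in the dark. At an unadjusted p under 0.05, 2 were higher (8.76% of all) and 1 lower (6.58%). For ZT15 minus ZT3 the members called were 0, against 0.22% of all higher and 0% lower, and 1 was higher (9.85%) and 0 lower (2.68%) unadjusted. For ZT21 minus ZT9 they were 0, against 0.00407% higher and 0% lower, with 2 higher (4.18%) and 1 lower (9.07%) unadjusted. For ZT15 minus ZT9 they were 0, against 0.118% higher and 0.00815% lower, with 3 higher (3.75%) and 0 lower (3.44%) unadjusted. Chordc1 came closest there (adjusted p = 0.0843 from limma), and it passed under quantile normalization and under centring on the median (adjusted p = 0.0215 and 0.0286). The change from ZT3 to ZT15 was not shown to differ from that from ZT9 to ZT21 for any member (0 of 11 by limma, against 0.0204% of all higher and 0.00407% lower, with 1 higher (8.47%) and 0 lower (2.3%) unadjusted).

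**Figure D4:**
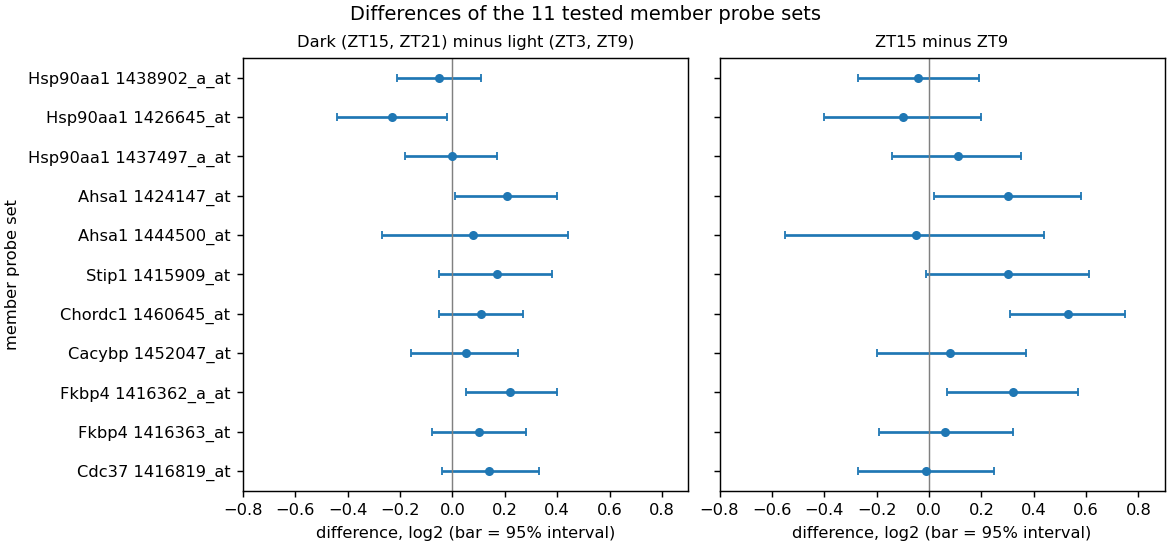
Differences on the log2 scale of the 11 tested member probe sets, between dark and light on the left and between ZT15 and ZT9 on the right. Points are the estimates from limma and bars their 95% intervals, not adjusted for the number of tests. Chordc1 has the largest difference across lights off (0.53), and Hsp90aa1 1426645_at is the lowest between dark and light (-0.23).

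No other tested gene of the Hsp90 system passed the test over the 4 time points. The list holds 30 genes of other Hsp90 forms and co-chaperones, of which 26 were tested. Of these 0 passed the F-test of limma at 0.20 (1.93% of all probe sets did), 5 had an unadjusted p under 0.05 (15.5% of all), SAM called 7 (19.6%), and 6 were highest at ZT15 (24.1%), shares near those of all probe sets. Those with the smallest p were Fkbp5, a co-chaperone of the glucocorticoid receptor that glucocorticoids induce, with mean and SD 8.55 ± 0.23 at ZT9 and 7.92 ± 0.24 at ZT21 (adjusted p = 0.216 from limma), Tsc1, with 9.26 ± 0.08 at ZT3 and 9.76 ± 0.22 at ZT15 (0.227), Fnip2 (range 0.60, 0.281), Sgta (range 0.30, 0.304) and Nudc (range 0.28, 0.308). Hsp90b1, the Hsp90 of the endoplasmic reticulum, had a range of 0.28 (adjusted p = 0.35). Of 24 listed proteins that depend on Hsp90, 18 were tested by their transcripts and 0 passed (1 unadjusted, 3 by SAM), and the smallest p-values were those of the kinases Lrrk2, Braf, Cdk5 and Cdk4 and the receptor Nr3c2 (adjusted p = 0.205, 0.326, 0.36, 0.366 and 0.363).

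In the wider heat shock response a pair of genes passed, both highest at ZT15 as Chordc1 was. Of 24 listed genes 19 were tested, 12 of them were highest at ZT15 (24.1% of all probe sets were), and 2 passed the F-test of limma at 0.20, both among these 12 (0.921% of all probe sets passed and were highest there). At an unadjusted p under 0.05 there were 7 (15.5% of all), and SAM called 7 (19.6%). Hspb1, the small heat shock protein Hsp27, changed over the day, with its lowest mean of 7.67 (SD 0.15) at ZT9 and its highest of 9.07 (SD 0.52) at ZT15 (adjusted p = 0.103 by the F-test of limma). Hspa1b, an inducible Hsp70, likewise changed, between 8.81 (SD 0.55) and 10.27 (SD 0.67) at these times (adjusted p = 0.192 by the same test). Both calls ended without ZT3 replicate 2 or 3 (adjusted p = 0.21 to 0.426 from limma), and that of Hspa1b ended in 5 further fits that lacked an array each, ZT3 replicate 1, replicate 2 of ZT9 and of ZT15, and replicates 1 and 2 of ZT21 (0.25 to 0.34). Without the filter on brightness they were 0.217 and 0.341. Without ZT15 replicate 3 the ranges of Hspb1 and Hspa1b fell from 1.41 and 1.46 to 1.11 and 1.1. The mean of the 19 genes was lowest on ZT9 replicate 3 and highest on ZT15 replicate 3. It ran from 9.47 to 9.85 at ZT9 and from 9.81 to 10.26 at ZT15. Hspa1a of the same list did not pass (range 0.66, SD 0.64 at ZT15, adjusted p = 0.372 from limma). Serpinh1, Dnajb1 and Cryab had ranges of 0.70, 0.74 and 0.73, highest at ZT15, and did not pass (0.21, 0.227 and 0.234). The median difference across lights off was 0.15 over the 19 genes, against 0.30 over the 7 member genes by their brightest probe sets, 0.08 over all 11 tested member probe sets, 0.03 over the other Hsp90-system genes and -0.01 over all tested probe sets.

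**Figure D5:**
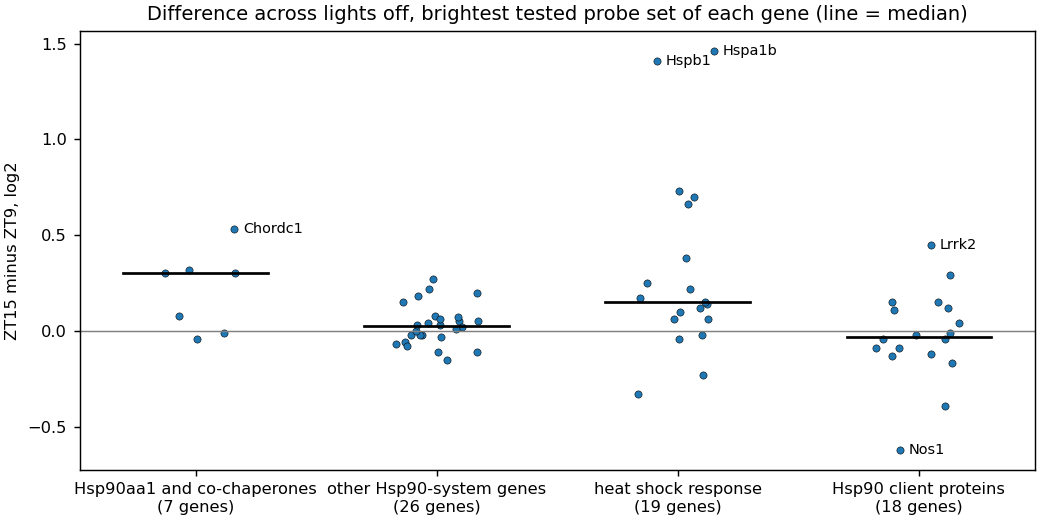
Difference between ZT15 and ZT9 on the log2 scale for each gene of 4 lists, by its brightest tested probe set. Points are genes, spread sideways for sight, and lines are medians. Hspb1 (1.41) and Hspa1b (1.46) lie above all other genes shown, and Chordc1 (0.53) leads its group.

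The genes whose arrays ran most like those of a member were different for the chaperone and for Chordc1. Over the 12 arrays, the brightest probe set of Hsp90aa1 was closest to Matr3 (Pearson's r = 0.958), Rragd (0.954), Gid4 (0.951), Eif3a (0.947) and Rtn3 (0.946). Chordc1, looked at in this way after its values were seen, was closest to Dnajb11 (0.925), Pdia6 (0.921), Hspa5 (0.911), Ubash3b (0.901) and Calr (0.898). Dnajb11, Pdia6, Hspa5 and Calr encode chaperones and a disulfide isomerase of the endoplasmic reticulum. These genes were picked as the highest of all tested, so the coefficients are descriptions and carry no test.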

How the data were processed

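The authors hybridised RNA of single mice to Affymetrix Mouse430_v2 arrays and computed GCRMA values in GeneSpring from the scanned array files. The deposited values are intensity on a linear scale, for 45101 probe sets and 12 arrays, without the detection calls of Microarray Suite 5.0. Groups came from the sample titles. The log2 of each value was used (the floor of 1 touched none), and 64 controls were left out. In place of the authors' filter, the same number of probe sets (54.5%, mean log2 of 4.87 or more) was kept by brightness. A single limma fit (version 3.58.1, R 4.3.3; lmFit, eBayes) held all of them, with the F-test at a Benjamini-Hochberg adjusted p under 0.20 and contrasts at 0.05, two-sided, adjusted over all tested probe sets. Names came from the platform annotation (34945 probe sets with 1 symbol, 932 with several, 9160 unnamed here), and all 7 member genes with probe sets matched RefSeq by gene ID. A gene was represented by its brightest probe set, and of each gene list the 5 genes with the smallest F-test p were named. Members and lists were chosen with earlier results of these data known. Alternatives were quantile normalization, median centring, no filter, the 15000 brightest probe sets, a trended robust prior, array weights, a block for replicate number, omission of each array, SAM with 100 permutations and, added after the values were seen, leaving out the 4 brightest arrays and log2 mean intensity as a covariate. The fit was tested on simulated data. Promoters and figures used Python 3.11.15 (matplotlib 3.10.9, numpy 2.4.6, pandas 2.3.3).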

Additional observations from a re-analysis of the deposited data

How the results depend on the processing

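The count of members called over the 4 time points was 1 and remained 1 under centring, without a filter, with the 15000 brightest probe sets and with the trended prior, each time Chordc1. It became 3 under quantile normalization (8.73% of all probe sets called, against 1.93%), 7 with array weights (60%), 2 by SAM (19.6%), 0 at an adjusted p under 0.05 (0.106%), and, as alternatives chosen after seeing the data, 5 without the 4 brightest arrays (25.3%) and 2 with mean intensity as a covariate (5.56%). The cause was not tested. Leaving out 1 array gave 0 to 2, with 40 to 3013 of all probe sets called. The replicate number as a block gave 0 (Chordc1 adjusted p = 0.278 from limma) and 91 instead of 473 of all probe sets, and ended the calls of Hspb1 and Hspa1b (0.24 and 0.336). Of 18 same-numbered pairs, 6 deviated together at a correlation over 0.1 (lowest -0.498, highest 0.487), and 3 of 12 arrays correlated best with their own number. These are deviations from the mean of each time, which balance out within a time, so that the correlations depend on each other. Whether arrays of the same number were handled together was not tested. In the contrasts, array weights called 1 member between dark and light, 1 for ZT21 minus ZT9 and 1 for the difference of the 12-hour contrasts, each Hsp90aa1 1426645_at, where they called 11.5%, 18.3% and 11.5% of all probe sets. For ZT15 minus ZT9 Chordc1 made the count 1 with array weights (0.346% of all), quantile normalization (0.293%), centring (0.281%) and the covariate (0.375%), and 0 in every fit without 1 array. The contrast ZT21 minus ZT9 gave 0 to 1 without 1 array. Other scaling moved the median of all probe sets in the difference of the 12-hour contrasts from 0.096 to -0.005 (quantile) or -0.021 (centring).

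Differences near 0 turned sign without being called. For ZT15 minus ZT9, Hsp90aa1 1438902_a_at was 0.09 without the 4 brightest arrays and -0.12 to 0.01 without 1 array, and Hsp90aa1 1426645_at was 0.00 without the 4 brightest. Ahsa1 1444500_at was 0.03 with array weights, 0.03 without the 4 brightest and -0.23 to 0.24 without 1 array. Cacybp was -0.02 to 0.23, Fkbp4 1416363_at -0.05 to 0.15 and Cdc37 -0.14 to 0.10 without 1 array, and Cdc37 was 0.00 under quantile normalization and 0.01 with the covariate. Between dark and light and without 1 array, Hsp90aa1 1437497_a_at was -0.05 to 0.04, Ahsa1 1444500_at 0.00 to 0.23 and Cacybp 0.00 to 0.12.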
